A study of Mus musculus with 54 samples.

Results

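The genes described here are the 4 mouse Cyp2a genes Cyp2a4, Cyp2a5, Cyp2a12 and Cyp2a22, taken by symbol from a table of 18079 genes measured in 54 livers. They were chosen by values of these same livers, namely their differences in level between genotypes and their daily rhythm in WT livers, so those values are given below as a description and without a test. Their rhythms in the other genotypes were tested.

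The livers came from female C57BL/6J mice aged 8 to 12 weeks that ate normal chow freely under 12 h of light and 12 h of dark. In Liver-RE mice, which carry the BMAL1-stop-FL allele, the clock activator BMAL1 is restored in the liver of an animal that otherwise lacks it. In KO mice BMAL1 is knocked out, and WT mice are the unmodified genotype. Each genotype was sampled at ZT0, ZT4, ZT8, ZT12, ZT16 and ZT20 (ZT0 is lights on), with 3 livers at each time and 18 in all. The recombinase that restores BMAL1 in Liver-RE livers, and so the cells in which it acts, is not given in the sources used here.

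CYP2A enzymes are heme-containing monooxygenases of the endoplasmic reticulum that take electrons from P450 oxidoreductase. In the mouse, CYP2A4 hydroxylates testosterone and other steroids, and its liver mRNA is higher in females. CYP2A5 is the coumarin hydroxylase of mouse liver and also oxidises nicotine, as does its human counterpart CYP2A6. CYP2A12 is a further steroid hydroxylase. Cyp2a4 and Cyp2a5 are known as targets of DBP, a transcription factor of the PAR bZIP family whose own level follows the clock and which binds sites called D-boxes.

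The 4 genes lie on chromosome 7 and have 9 exons each (RefSeq, GRCm38.p6). Cyp2a4 spans 26307192 to 26315088 on the plus strand, Cyp2a5 26835339 to 26843264 on the plus strand, Cyp2a22 26931631 to 26939413 on the minus strand and Cyp2a12 27029090 to 27036818 on the plus strand. The start of Cyp2a4 overlaps an antisense gene, Gm42375, and Cyp2a22 lies inside the span of the pseudogene Cyp2a21-ps on the other strand. The library protocol keeps strand, but whether the counting used it is not given in the sources used here.

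By sequence, the family falls into 2 close pairs. The GENCODE transcripts of Cyp2a4 and Cyp2a5 were 98.3% identical, with 30 mismatches in 1738 aligned bases, and those of Cyp2a12 and Cyp2a22 were 96.6% identical, with 57 mismatches in 1673. Across the pairs the identity was 78.7% to 80.1%. Reads were 100 bases long, and 183 of the 1639 windows of 100 bases in the Cyp2a4 transcript, 11.2%, also occurred unchanged in Cyp2a5. With 1 mismatch allowed the share was 51.6%, and with 2 mismatches 77.3%. For Cyp2a12 in Cyp2a22 the shares were 6.83%, 21.0% and 37.5%. Cyp2a21-ps also shared windows with Cyp2a4 and Cyp2a5. How the authors' counting treated reads that match more than 1 gene is not given in the sources used here, so the split of reads within each pair, and Cyp2a4 against Cyp2a5 above all, is uncertain.

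The promoters show the same pairing, and are printed to let the near-identical starts of Cyp2a4 and Cyp2a5 be read beside their different levels. Each window holds 250 bases before and 50 bases after the RefSeq start (GRCm38.p6), written 5′ to 3′ on the gene's strand. The windows are chr7:26306942-26307241 (plus) for Cyp2a4, chr7:26835089-26835388 (plus) for Cyp2a5, chr7:27028840-27029139 (plus) for Cyp2a12 and chr7:26939337-26939636 (minus) for Cyp2a22. Capitals mark TATAAA and, where it occurs, TTGCATAA.
Cyp2a4: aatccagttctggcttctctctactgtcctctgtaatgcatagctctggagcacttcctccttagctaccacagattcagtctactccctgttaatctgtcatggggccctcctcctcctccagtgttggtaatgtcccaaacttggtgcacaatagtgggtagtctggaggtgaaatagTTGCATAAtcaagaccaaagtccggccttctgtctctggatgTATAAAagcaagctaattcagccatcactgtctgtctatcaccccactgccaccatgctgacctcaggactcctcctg
Cyp2a5: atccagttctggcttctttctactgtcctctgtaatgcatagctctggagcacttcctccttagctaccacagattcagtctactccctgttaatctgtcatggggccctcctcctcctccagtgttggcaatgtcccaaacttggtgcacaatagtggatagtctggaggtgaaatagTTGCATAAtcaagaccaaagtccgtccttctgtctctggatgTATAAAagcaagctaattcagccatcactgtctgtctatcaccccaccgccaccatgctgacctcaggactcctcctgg
Cyp2a12: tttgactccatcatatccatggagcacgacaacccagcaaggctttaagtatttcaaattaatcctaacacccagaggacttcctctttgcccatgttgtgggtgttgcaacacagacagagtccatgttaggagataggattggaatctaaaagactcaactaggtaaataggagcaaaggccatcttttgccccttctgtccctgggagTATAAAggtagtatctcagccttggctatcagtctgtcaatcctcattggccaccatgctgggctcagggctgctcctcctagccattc
Cyp2a22: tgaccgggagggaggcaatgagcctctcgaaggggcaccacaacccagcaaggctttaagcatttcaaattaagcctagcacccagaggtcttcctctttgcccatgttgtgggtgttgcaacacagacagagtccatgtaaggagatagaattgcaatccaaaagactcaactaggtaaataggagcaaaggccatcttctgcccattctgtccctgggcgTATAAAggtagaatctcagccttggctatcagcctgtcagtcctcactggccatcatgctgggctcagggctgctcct

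The Cyp2a4 and Cyp2a5 windows differed at 5 of 299 aligned bases (98.3% identity), and those of Cyp2a12 and Cyp2a22 at 23 of 282 (91.8%). TATAAA on the given strand was present in all 4, starting 28 to 39 bases before the start, and in 8.28% of 32544 promoter windows of the same length. The D-box letters TTANGTAA, searched on both strands, were in none of the 4 and in 2.29% of all windows. TTGCATAA, a D-box-like run picked out after the letters of these promoters had been read, was in Cyp2a4 and Cyp2a5 at -70 and -71 and in 0.75% of all windows on either strand. None of the 4 held the E-box CACGTG (7.17% of all windows), the STAT5 letters TTCNNNGAA (8.33%) or the antioxidant response letters TGACNNNGC (12.4%), each searched on both strands.

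Levels are FPKM, read counts scaled by gene length and library depth. Arntl, the gene of BMAL1, was between 0.894 and 10.7 FPKM in Liver-RE livers, 6.26 and 8.74 FPKM in KO livers and 0.350 and 12.1 FPKM in WT livers (lowest and highest of 18 livers each). Its row therefore does not check the KO label, and the part of the gene that is altered is not given in the sources used here. Albumin, the defining hepatocyte product, was at 11613 FPKM or more in every library. By 12 clock genes, 1 library stood apart: WT ZT8 replicate 2 matched the WT mean of ZT20, 12 h away (r = 0.754, against -0.846 for ZT8). Its levels of Cyp2a4, 556 FPKM, and Cyp2a5, 429 FPKM, lay beside or close to those of the other ZT8 livers. Without it the WT peak-to-trough was 1.84 for Cyp2a4 and 3.01 for Cyp2a5 on the log2 scale, against 1.84 and 3.03 with it. Among Liver-RE livers, 9 of 18 matched a time 4 h from their own.

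Cyp2a4 was the most abundant member in WT livers, a minor one in KO livers and intermediate in Liver-RE livers. Its mean was 206 ± 136 FPKM in Liver-RE livers, 3.85 ± 3.22 FPKM in KO livers and 602 ± 308 FPKM in WT livers (SD over all times, n = 18 each). By mean FPKM it ranked 207 of 18079 genes in Liver-RE livers, 6734 in KO livers and 68 in WT livers.

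In Liver-RE livers, the 3 replicates had 56.6, 123 and 189 FPKM of Cyp2a4 at ZT0, 252, 66.9 and 195 at ZT4, and 206, 308 and 89.8 at ZT8. They had 274, 334 and 581 FPKM at ZT12, 242, 335 and 87.1 at ZT16, and 78.2, 249 and 47.6 at ZT20. The group means were highest at ZT12 (396 FPKM) and lowest at ZT0 (123 FPKM), and single livers of one time differed by up to several-fold.

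In KO livers, Cyp2a4 was at 12.5, 6.11 and 4.56 FPKM at ZT0, 1.81, 1.73 and 1.19 at ZT4, and 1.75, 2.72 and 0.957 at ZT8. It was at 2.40, 1.37 and 7.36 FPKM at ZT12, 4.99, 9.83 and 1.83 at ZT16, and 2.65, 2.58 and 2.98 at ZT20. All 18 KO livers were far below the lowest liver of the other genotypes, and the highest KO liver was a ZT0 liver.

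In WT livers, Cyp2a4 was at 325, 369 and 365 FPKM at ZT0, 220.1, 362 and 311 at ZT4, and 544, 556 and 477 at ZT8. It was at 1128, 841 and 1138 FPKM at ZT12, 1028, 916 and 816 at ZT16, and 745, 262 and 427 at ZT20. Every WT liver of ZT12 and ZT16 was above every other WT liver.

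The KO and WT ranges of Cyp2a4 did not overlap, either over all 18 livers of each genotype or at any of the 6 times. Of all 11759 genes tested, 0.306% were lower in KO than in WT without overlap of the 18 livers, and 0.697% without overlap at all 6 times. The Liver-RE range lay above the KO range over all livers and at all 6 times, as it did for 0.247% and 0.468% of genes. Liver-RE livers were below WT livers at 5 of 6 times, all but ZT4, which 0.170% of genes matched or passed. These percentages are given for scale, because the same differences had chosen the gene.

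The size of the Cyp2a4 difference changed over the day. On the log2(FPKM + 1) scale, KO minus WT was smallest at ZT0, -5.45 ± 0.387, and largest at ZT12, -7.98 ± 0.560 (SE from 3 livers each). Liver-RE minus KO was 3.77 ± 0.633 at ZT0 and 6.53 ± 0.631 at ZT12. Liver-RE minus WT lay between -2.25 ± 0.590 at ZT16 and -0.97 ± 0.619 at ZT4. These 3 differences share their samples in pairs. Averaged over times, KO minus WT was -7.01 ± 0.228, while the median over all genes was 0.02.

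**Figure D1:**
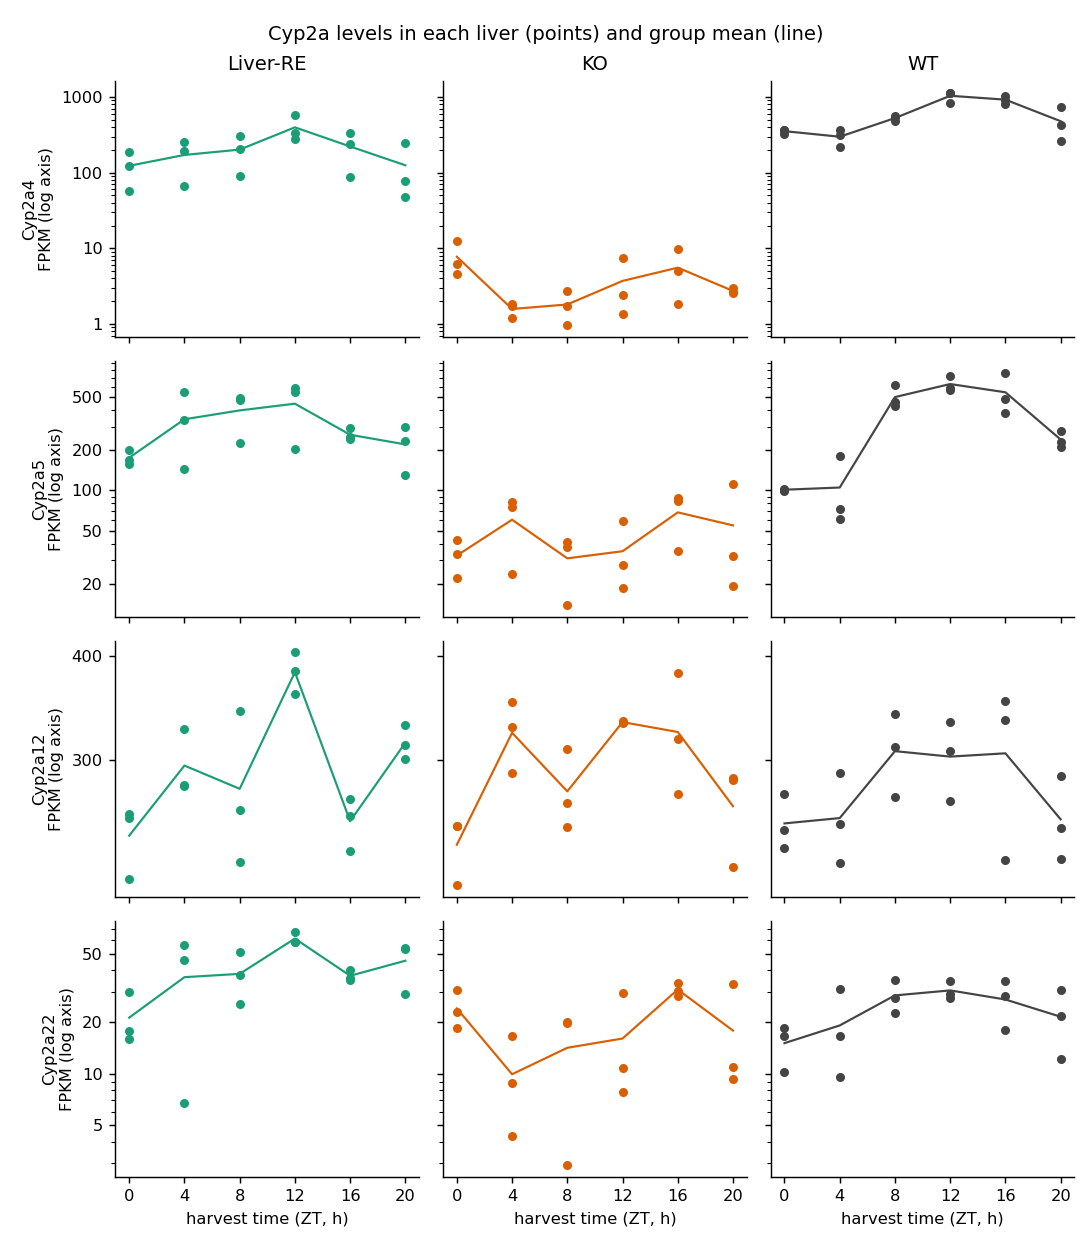
FPKM (log axis) of Cyp2a4, Cyp2a5, Cyp2a12 and Cyp2a22 (rows) against harvest time in Liver-RE, KO and WT livers (columns). Points are single livers and lines join the means of 3; Cyp2a4 in KO livers stayed at or below 12.5 FPKM, while Cyp2a12 lay between 211 and 404 FPKM in all 54 livers.

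Cyp2a5 kept a moderate level in KO livers, where Cyp2a4 was nearly gone. Its mean was 307 ± 152 FPKM in Liver-RE livers, 47.0 ± 29.0 FPKM in KO livers and 353 ± 234 FPKM in WT livers (SD, n = 18 each). It ranked 129, 914 and 117 of 18079 genes in Liver-RE, KO and WT livers.

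In Liver-RE livers, Cyp2a5 was at 157, 170.3 and 201 FPKM at ZT0, 336, 144 and 544 at ZT4, and 226, 474 and 492 at ZT8. It was at 544, 205 and 590.0 FPKM at ZT12, 250.4, 292 and 241 at ZT16, and 296, 131 and 236 at ZT20. The highest and the lowest liver of this genotype were thus at ZT12 and ZT20, but the spread within ZT4, ZT8 and ZT12 covered most of that range.

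In KO livers, Cyp2a5 was at 33.3, 22.0 and 42.3 FPKM at ZT0, 81.8, 23.6 and 75.7 at ZT4, and 41.5, 13.8 and 37.8 at ZT8. It was at 58.7, 18.6 and 27.9 FPKM at ZT12, 82.8, 35.1 and 87.6 at ZT16, and 113, 19.2 and 32.4 at ZT20. Livers of one time differed by about as much as livers of different times. The spread within a time followed the replicate number in part: replicate 2, listed in the middle, was the lowest liver at every time.

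In WT livers, Cyp2a5 was at 103, 101 and 99.6 FPKM at ZT0, 61.0, 182 and 72.2 at ZT4, and 616, 429 and 456 at ZT8. It was at 589, 569.7 and 720.3 FPKM at ZT12, 382, 485 and 763 at ZT16, and 278, 231 and 213 at ZT20. The step between ZT4 and ZT8 separated the groups without overlap, and every liver of ZT8, ZT12 and ZT16 was above every liver of ZT20, ZT0 and ZT4.

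The KO and WT ranges of Cyp2a5 overlapped over the whole day but not at 5 of 6 times, ZT4 being the exception, and 1.68% of genes were lower in KO at 5 or more times. Liver-RE livers were above KO livers over the whole day and at all 6 times, as for 0.247% and 0.468% of genes. These percentages are again for scale only, because such differences had chosen the gene. On the log2(FPKM + 1) scale, KO minus WT was -0.80 ± 0.746 at ZT4 and -4.27 ± 0.483 at ZT12. Liver-RE minus WT was positive at ZT0 (0.78 ± 0.104) and ZT4 (1.67 ± 0.741), and negative at the other 4 times, with the lowest value at ZT16 (-0.998 ± 0.304). Averaged over times it was 0.04 ± 0.220, an average over opposite signs. It was -0.03 without WT ZT4 replicate 1, and also below 0 without WT ZT4 replicate 3, Liver-RE ZT4 replicate 3 or Liver-RE ZT20 replicate 1.

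Cyp2a12 was nearly level across genotypes. Its mean was 294 ± 54.8 FPKM in Liver-RE livers, 292 ± 46.7 FPKM in KO livers and 279 ± 42.6 FPKM in WT livers (SD, n = 18 each). The lowest, median and highest livers were at 215, 279 and 404 FPKM in Liver-RE, 211, 287 and 382 FPKM in KO, and 225, 271 and 354 FPKM in WT. On the log2(FPKM + 1) scale, KO minus WT was 0.06 ± 0.0738, Liver-RE minus WT 0.07 ± 0.0738 and Liver-RE minus KO 0.00 ± 0.0738. Its highest group mean was at ZT12 in Liver-RE livers (383 ± 22.3 FPKM), at ZT12 in KO livers (333 ± 1.09 FPKM) and at ZT8 in WT livers (307 ± 35.3 FPKM; SD, n = 3 each). The lowest was at ZT0 in each genotype, with 243, 237 and 251 FPKM in Liver-RE, KO and WT livers. At ZT12 all 3 Liver-RE livers of Cyp2a12 were above the KO livers (6.11% of genes) and above the WT livers (5.38% of genes), and at ZT16 they were below the KO livers (23.6% of genes). At ZT20 the 3 Liver-RE livers of Cyp2a12 were again above the KO livers (4.79% of genes) and above the WT livers (6.71% of genes). At ZT4 the KO livers of Cyp2a12 lay above the WT livers (12.4% of genes), the lowest KO liver being level with the highest WT liver to within rounding.

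Cyp2a22 was the least abundant member in Liver-RE and in WT livers, and its mean was highest in Liver-RE livers. Its mean was 40.1 ± 17.0 FPKM in Liver-RE livers, 18.8 ± 10.4 FPKM in KO livers and 23.7 ± 8.59 FPKM in WT livers (SD, n = 18 each). The lowest, median and highest livers were at 6.77, 39.2 and 66.7 FPKM in Liver-RE, 2.93, 19.1 and 34.0 FPKM in KO, and 9.50, 25.2 and 35.4 FPKM in WT. On the log2(FPKM + 1) scale, Liver-RE minus WT was 0.67 ± 0.228, and it was positive at each of the 6 times, between 0.37 ± 0.338 at ZT8 and 1.09 ± 0.468 at ZT20. KO minus WT changed sign over the day, with 0.65 ± 0.314 at ZT0 and -1.29 ± 0.821 at ZT8. Cyp2a22 and Cyp2a12 thus differed in level and in spread between genotypes although their transcripts are close in sequence.

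Set side by side, the order of the mean FPKM was Cyp2a5, Cyp2a12, Cyp2a4 and Cyp2a22 in Liver-RE livers, Cyp2a12, Cyp2a5, Cyp2a22 and Cyp2a4 in KO livers, and Cyp2a4, Cyp2a5, Cyp2a12 and Cyp2a22 in WT livers. Neighbours in that order whose means were closer than the larger of their SDs were Cyp2a5 and Cyp2a12 and also Cyp2a12 and Cyp2a4 in Liver-RE livers, Cyp2a5 and Cyp2a22 in KO livers, and Cyp2a4 and Cyp2a5 and also Cyp2a5 and Cyp2a12 in WT livers.

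The sum of the 4 genes averaged 848 ± 291 FPKM in Liver-RE livers, 362 ± 64.6 FPKM in KO livers and 1257 ± 547 FPKM in WT livers (SD, n = 18 each). Cyp2a4 made up 23.0% ± 9.97 of that sum in Liver-RE livers, 1.14% ± 1.09 in KO livers and 46.9% ± 7.30 in WT livers. Cyp2a5 made up 35.2% ± 8.75 in Liver-RE livers, 12.4% ± 5.96 in KO livers and 25.3% ± 9.57 in WT livers. Cyp2a12 was 37.1% ± 9.61 of the sum in Liver-RE livers, 81.2% ± 7.42 in KO livers and 25.8% ± 9.28 in WT livers. The KO pool was therefore mostly Cyp2a12, at a level like that of the other genotypes. Cyp2a22 added 4.67% ± 1.56, 5.19% ± 2.70 and 2.05% ± 0.823 in Liver-RE, KO and WT livers.

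**Figure D2:**
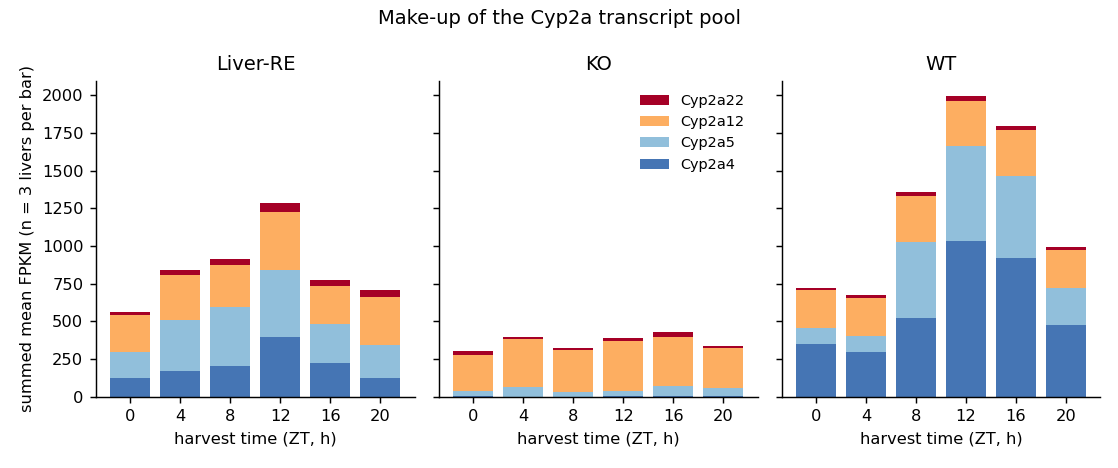
Mean FPKM of the 4 Cyp2a genes, stacked, at each harvest time in Liver-RE, KO and WT livers (3 livers per bar, no error bars). The stack was highest at ZT12 in Liver-RE livers (1287 FPKM), at ZT16 in KO livers (429 FPKM) and at ZT12 in WT livers (1995 FPKM), and in KO livers it was mostly Cyp2a12.

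The ratio of Cyp2a4 to Cyp2a5 within a liver also differed between genotypes. Its lowest, median and highest values were 0.182, 0.686 and 1.90 in Liver-RE livers, 0.0158, 0.0734 and 0.375 in KO livers, and 0.882, 1.95 and 4.31 in WT livers. In WT livers the mean ratio was 3.49 at ZT0, 3.30 at ZT4, 1.08 at ZT8, 1.66 at ZT12, 1.88 at ZT16 and 1.94 at ZT20. The WT ratio was thus highest in the hours when both genes were low. In Liver-RE livers the mean ratio lay between 0.524 at ZT4 and 1.04 at ZT12, with SDs of 0.203 to 0.961.

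**Figure D3:**
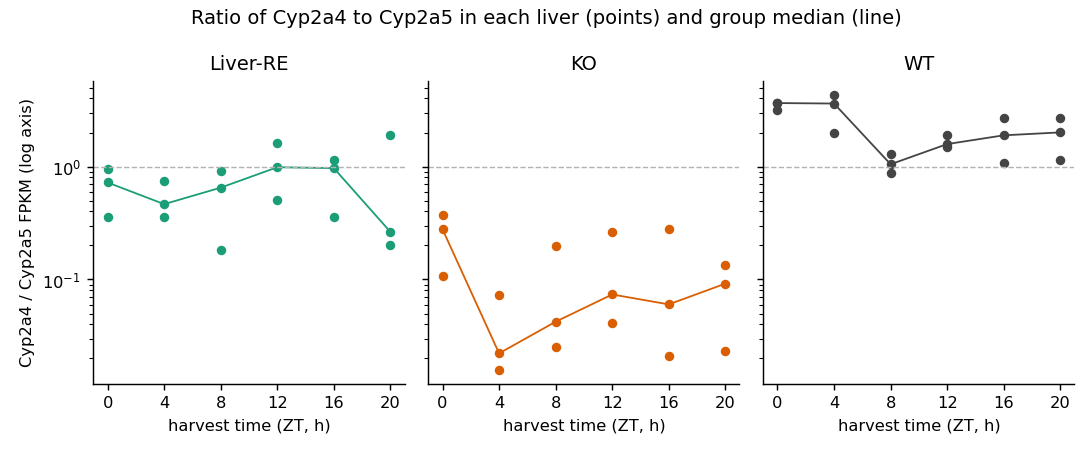
FPKM of Cyp2a4 divided by FPKM of Cyp2a5 (log axis) in each liver against harvest time, for Liver-RE, KO and WT livers; lines join group medians and the dashed line marks a ratio of 1. All 18 KO livers were at or below 0.375, and all but 1 of the WT livers were above 1.

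Because the split between Cyp2a4 and Cyp2a5 is uncertain, their sum was fitted as a single row. The sum averaged 514 ± 248 FPKM in Liver-RE livers, 50.9 ± 28.5 FPKM in KO livers and 955 ± 512 FPKM in WT livers (SD, n = 18 each). On the log2(FPKM + 1) scale it differed by -4.18 ± 0.189 in KO minus WT, by -0.82 ± 0.189 in Liver-RE minus WT and by 3.36 ± 0.189 in Liver-RE minus KO. These values describe the summed FPKM of the pair. Each FPKM is scaled by the length of its own gene, so the sum also moves with the split of reads. The longest transcripts have 1738 bases for Cyp2a4 and 2013 bases for Cyp2a5. Shared reads that were dropped, or given to Cyp2a21-ps, would be missing from the sum.

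Daily rhythms were described by a 24 h cosine fitted to log2(FPKM + 1) in each genotype. In WT livers, without a test, the fitted peak-to-trough was 3.59-fold for Cyp2a4 with a peak at ZT13.7 ± 0.944 (SE), and 8.15-fold for Cyp2a5 at ZT13.1 ± 0.554. It was 1.27-fold for Cyp2a12 at ZT11.8 ± 1.62 and 2.03-fold for Cyp2a22 at ZT12.3 ± 1.70. All 4 fitted WT peaks thus fell within 2 h of one another, near lights off.

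No member passed the test for a rhythm in Liver-RE livers (limma, Benjamini-Hochberg adjustment over 11759 genes, threshold 0.05), where 3.82% of all genes did. Cyp2a4 came nearest, with a peak-to-trough of 3.06-fold at ZT11.3 ± 1.08 and an adjusted p of 0.0701. This call turned on single livers: the limma adjusted p of Cyp2a4 was 0.0295 without Liver-RE ZT8 replicate 3, 0.0390 without ZT0 replicate 3, 0.0397 without ZT20 replicate 2 and 0.204 without ZT12 replicate 3. Cyp2a5 had 2.26-fold at ZT9.98 ± 1.42 (adjusted p = 0.199), Cyp2a22 2.25-fold at ZT13.4 ± 1.49 (adjusted p = 0.226) and Cyp2a12 1.23-fold at ZT11.9 ± 1.90 (adjusted p = 0.386). Cyp2a12 passed when the 6 times were compared without a cosine (limma, adjusted p = 0.0373). Its Liver-RE means at ZT12 and ZT20 were both above those at ZT0, ZT8 and ZT16. The 3.82% of genes above belongs to the cosine test. The call of Cyp2a12 was unchanged in 27 of 28 alternative settings, with adjusted p values up to 0.629. The sum of Cyp2a4 and Cyp2a5 had 2.48-fold at ZT10.8 in Liver-RE livers (adjusted p = 0.0767).

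No member passed the test for a rhythm in KO livers either, where 0% of all genes did (limma; 1105 genes had an unadjusted p under 0.05, and 6 passed when the 6 times were compared without a cosine). The fitted peak-to-trough was 2.03-fold for Cyp2a4 (adjusted p = 0.598), 1.39-fold for Cyp2a5 (adjusted p = 0.877), 1.28-fold for Cyp2a12 (adjusted p = 0.564) and 2.37-fold for Cyp2a22 (adjusted p = 0.491). The fitted KO peaks of Cyp2a4, Cyp2a5 and Cyp2a22 lay between ZT18.2 and ZT19.7, each with an SE of at least 1.40 h. The Liver-RE and KO rhythms of the members were not shown to differ either, a test that 0.238% of all genes passed. The adjusted p of that difference was 0.149 for Cyp2a4, 0.414 for Cyp2a5, 0.983 for Cyp2a12 and 0.484 for Cyp2a22 (limma). In simulated data, the same test of a 2-fold rhythm recovered 93.0% of changed genes in KO and 92.3% in Liver-RE. These are shares over genes of all degrees of spread and were not worked out for the members. The SE of the fitted log2 peak-to-trough was 0.456 for Cyp2a4, 0.439 for Cyp2a5, 0.456 for Cyp2a22 and 0.148 for Cyp2a12. A 2-fold rhythm of Cyp2a4, Cyp2a5 or Cyp2a22 could therefore have been missed.

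**Figure D4:**
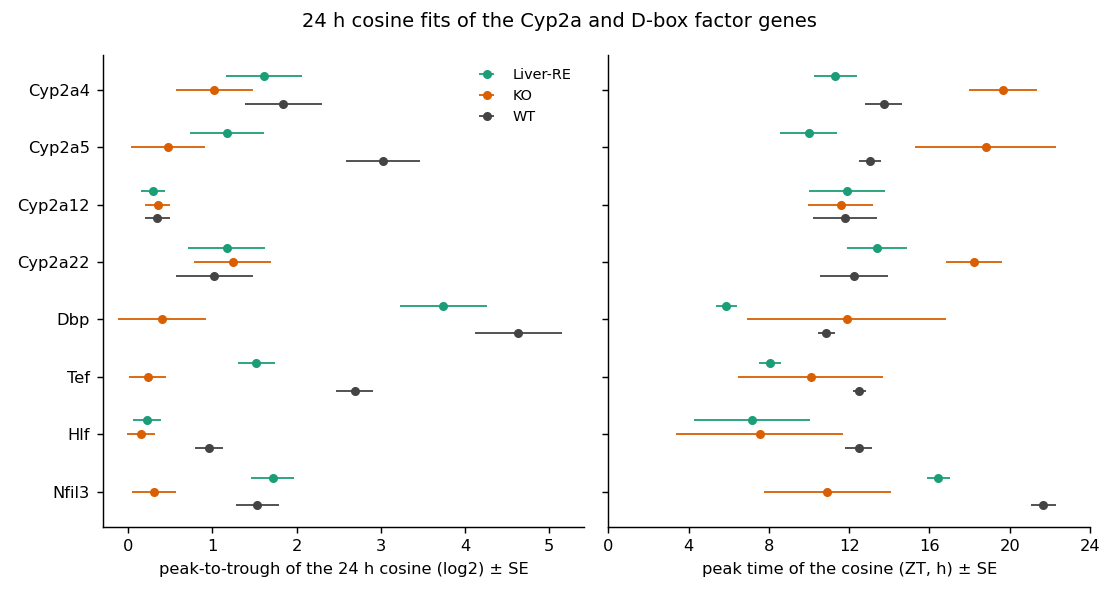
Peak-to-trough of the fitted 24 h cosine (left, log2 scale) and its peak time (right, ZT in hours), each ± SE, for the 4 Cyp2a genes and the D-box factors Dbp, Tef, Hlf and Nfil3, in Liver-RE, KO and WT livers (18 livers each). Cyp2a4 and Cyp2a5 peaked at ZT11.3 and ZT9.98 in Liver-RE livers and at ZT13.7 and ZT13.1 in WT livers; peak times of shallow cosines have wide errors.

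The spread between livers of one group differed among the members. The within-group SD on the log2(FPKM + 1) scale was 0.948 for Cyp2a4 in Liver-RE livers, 0.647 in KO livers and 0.369 in WT livers. For Cyp2a5 it was 0.640, 0.888 and 0.432 in Liver-RE, KO and WT livers, and for Cyp2a22 0.738, 0.873 and 0.513. Cyp2a12 varied least, with 0.161, 0.166 and 0.204.

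Livers high in Cyp2a5 for their group were also high in Cyp2a22. Across the 54 livers, the deviations from the group mean of Cyp2a5 and Cyp2a22 correlated with a Pearson r of 0.709 and a Spearman rho of 0.682, and with r = 0.668 without the 2 farthest livers. The r was 0.722 in Liver-RE livers, 0.728 in KO livers and 0.633 in WT livers (n = 18 each). In KO livers, replicate 2 was the lowest of its group in both genes at every time. The KO value may therefore not rest on 18 unrelated livers, and a factor shared by same-numbered livers was not tested. Among 11758 genes, Cyp2a5 ranked 10 by its r with Cyp2a22, and Cyp2a22 ranked 34 by its r with Cyp2a5. Cyp2a5 and its near twin Cyp2a4 did not share this: their r was -0.016 over all livers, with 0.137 in Liver-RE, -0.275 in KO and 0.326 in WT livers. Cyp2a12 and its near twin Cyp2a22 had an r of 0.174 over all livers, with 0.260 in Liver-RE, -0.083 in KO and 0.464 in WT livers. Cyp2a5 and Cyp2a12 had an r of 0.236 over all livers, with 0.159 in Liver-RE, 0.072 in KO and 0.664 in WT livers, the WT value being close to that of Cyp2a5 and Cyp2a22. These correlations describe values that share a library and its scaling, and carry no test.

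**Figure D5:**
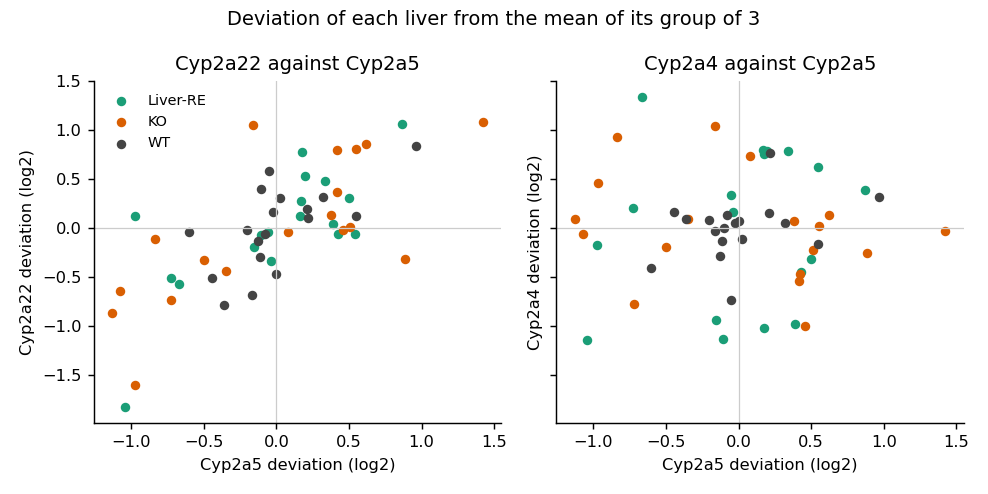
Deviation of each liver from the mean of its group of 3, on the log2(FPKM + 1) scale, for Cyp2a22 (left) and Cyp2a4 (right) against Cyp2a5, coloured by genotype (Liver-RE, KO, WT; 54 livers). Cyp2a22 followed Cyp2a5 (r = 0.709), and Cyp2a4 did not (r = -0.016).

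The genes most like each member were found by Pearson r over the 18 group means among 10071 genes. For Cyp2a4 they included Ugt1a9, a glucuronosyltransferase (r = 0.979), Sult2a2, a sulfotransferase (0.978), Slc22a26, an organic ion transporter family member (0.976) and Naip2 (0.973). Sult2a2 averaged 65.7 FPKM in Liver-RE livers, 2.59 FPKM in KO livers and 98.4 FPKM in WT livers, the same order as Cyp2a4. For Cyp2a5 they were Gda, guanine deaminase (0.966), Lrp4 (0.951), Mknk2, a protein kinase (0.951), Por, the P450 oxidoreductase (0.946) and Peli2 (0.945). For Cyp2a12 the highest r values were 0.903 (Gcdh, glutaryl-CoA dehydrogenase), 0.885 (Ccdc107), 0.835 (Msrb1), 0.826 (Cyb5a, cytochrome b5) and 0.818 (Steap4). For Cyp2a22 they included 0.838 (Acaa1b, an enzyme of peroxisomal fatty acid oxidation), 0.829 (Tpm2), 0.809 (Idh2) and 0.790 (Serpina6). Cyp2a4 and Cyp2a5 had an r of 0.893 with each other.

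The D-box factors were measured beside these genes. All 4 passed the level test between KO and WT, which 30.0% of all genes passed, 16.5% higher and 13.5% lower (limma): Dbp fell in KO by 1.48 on the log2 scale (adjusted p = 1.20e-05), Tef by 0.33 and Hlf by 0.22, while Nfil3, a repressor at the same sites, rose by 0.34. Between Liver-RE and WT none of the 4 passed, against 7.06% of all genes (1.18% higher and 5.88% lower). In WT livers all 4 were rhythmic, against 23.5% of genes, with Dbp at 24.8-fold and a peak at ZT10.9. The WT mean of Dbp at ZT8, 43.1 ± 36.2 FPKM (SD, n = 3), includes the library that stood apart. In Liver-RE livers 3 of 4 were rhythmic (limma), against 3.82% of genes. They were Dbp at 13.4-fold with a peak at ZT5.88, Tef at 2.87-fold at ZT8.06 and Nfil3 at 3.29-fold at ZT16.4. Hlf had an adjusted p of 0.640 (limma). The fitted peak of Cyp2a4 was at ZT11.3 in Liver-RE livers and ZT13.7 in WT livers, later than that of Dbp in both, a gap for which no test was run. In KO livers none of the 4 factors was rhythmic, and 0% of all genes were. Dbp group means there were 0.818 to 2.15 FPKM, against 2.25 to 36.2 FPKM in Liver-RE livers and 0.521 to 43.1 FPKM in WT livers.

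Of 13 other regulators reported for Cyp2a genes or for female-biased liver genes, 2 rose and 4 fell in KO against WT (limma), against 16.5% and 13.5% of all genes. Cux2, a female-biased liver repressor, fell by 1.73 on the log2 scale, with means of 2.26 FPKM in Liver-RE livers, 0.599 FPKM in KO livers and 4.30 FPKM in WT livers. Cebpa fell by 0.44 and Nr1i2, the receptor PXR, by 0.26, while Stat5b rose by 0.29. Cux2 was also the only one of the 13 to pass between Liver-RE and WT, where it fell by 0.79 and 7.06% of all genes passed. The median of the 13 genes was -0.07 in KO against WT, and that of all genes was 0.02.

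Of 6 genes of electron supply to CYP enzymes and of heme synthesis and breakdown, 4 fell and none rose in KO against WT (limma), against 13.5% and 16.5% of all genes. Por, the electron donor, fell by 0.99 (adjusted p = 1.53e-08), with means of 105 FPKM in Liver-RE livers, 52.6 FPKM in KO livers and 118 FPKM in WT livers. Between Liver-RE and WT, Hmox1, which breaks heme down, was the only one of the 6 to pass, and it fell by 0.42. Of all genes, 7.06% passed there. Between Liver-RE and KO, 3 of 6 rose, among them Por by 0.93, in a comparison that 34.1% of all genes passed (7.42% higher and 26.7% lower). In WT livers 4 of 6 were rhythmic, against 23.5% of all genes. Among them were Alas1, which starts heme synthesis, at 9.08-fold and ZT12.5, and Por at 3.47-fold and ZT14.0. None of the 6 passed in Liver-RE livers, where 3.82% of all genes did, and Por had an adjusted p of 0.0756 there (limma).

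Of 9 other Cyp2 genes of the chromosome 7 region, 8 were in the table and 5 passed the filter on low values. In KO against WT, Cyp2b13 fell by 3.52, Cyp2b9 by 1.84 and Cyp2g1 by 0.43 (limma), and none of the 5 rose, against 13.5% of all genes lower and 16.5% higher. Cyp2b13 averaged 67.4 FPKM in Liver-RE livers, 1.89 FPKM in KO livers and 32.4 FPKM in WT livers, so that Liver-RE lay above WT (log2 difference 0.94, adjusted p = 0.0274), whereas Cyp2a4, in the same region, lay below WT in Liver-RE livers.

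In whole liver, fewer cells of a type and less RNA per cell cannot be told apart. The summed hepatocyte markers ranged over 35756 to 72683 FPKM in Liver-RE livers, 25793 to 48702 FPKM in KO livers and 45012 to 63761 FPKM in WT livers. Albumin carried the lower KO sum. The mean sum was 35516 FPKM in KO and 53934 FPKM in WT livers, and albumin alone averaged 16700 and 36852 FPKM. In KO against WT, 3 of 9 hepatocyte markers fell, Alb by 1.17, and 1 rose (limma). For scale beside these and the following counts, 16.5% of all genes rose and 13.5% fell in that comparison. Of 8 Kupffer cell markers, 7 fell, with sums of 139 to 340.1 FPKM in Liver-RE livers, 139 to 318 FPKM in KO livers and 234 to 342 FPKM in WT livers. The 2 of 5 cholangiocyte markers that could be tested, Sox9 and Spp1, both rose in KO, with sums over the 5 of 8.78 to 21.7, 14.7 to 76.1 and 12.1 to 39.9 FPKM in Liver-RE, KO and WT livers. Of 9 pericentral markers, 3 rose and 1 fell, and of 6 periportal markers 1 fell. Among 6 endothelial markers 1 rose and 1 fell, and among 6 stellate cell markers 1 fell. Kupffer cell markers were also lower in Liver-RE than in WT livers. There 4 of 8 fell and 0 rose (limma), against 5.88% and 1.18% of all genes. In the same comparison 1 rose and 1 fell among the endothelial and likewise among the stellate cell markers, and no marker of the other lists passed. No marker in the table was at 0 in all libraries. The part of these shifts in the Cyp2a values was not tested.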

How the data were processed

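RNA was measured in 54 livers, 3 genotypes at 6 times with 3 livers each. Per the labels' protocols, the libraries kept strand, had ribosomal RNA removed and were read from a single end. CASAVA 1.8.2 and mm10 appear in the submitters' processing notes with no role given. The authors deposited 1 table of values with no unit named, taken here as FPKM from the values: multiplied by transcript length, 7.81% ± 1.46 of the low values fell on the commonest step, against 1.61% ± 0.194 as deposited (SD, n = 54). TPM after removal of some genes would look alike. Those steps give a depth of about 31.1 M reads per library (25.1 to 41.9 M reads); library sums of FPKM were 274353 to 419402. No counting error is given, since counts were not used.

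Values were analysed as log2(FPKM + 1), which understates changes of low genes, keeping 11759 genes whose mean reached 0.5, the 4 Cyp2a genes among them. All 54 livers were fitted together with limma 3.58.1 in R 4.3.3, using its trended empirical Bayes step, with a level, a cosine and a sine term (24 h) for every genotype. P-values were adjusted by Benjamini-Hochberg over all genes, threshold 0.05. Replicate numbers were not used as pairs, since the labels tie them to nothing shared: deviations of same-numbered livers correlated at 0.040 on average and those of different numbers at -0.020. The model was tested on simulated data; a log2 change of 1 between KO and WT was recovered in 99.3% of changed genes. The members, lists and tests were chosen with earlier results of these data known. Named were the 4 Cyp2a genes, the 5 genes most like each by r over 18 group means (mean of at least 1 FPKM; predicted genes and pseudogenes left out), all D-box factors, and up to 4 genes per other list by smallest p; a few genes taken by this rule are left out of the text. Sequences came from RefSeq (GRCm38.p6) and GENCODE vM21. Python 3.11.15 with pandas 2.3.3 and scipy 1.17.1 was used.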

Additional observations from a re-analysis of the deposited data

How the results depend on the processing

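The differences in level of the 4 Cyp2a genes kept their direction under the other pseudocount, filter, scalings, fitted terms and left-out livers, apart from differences near 0: Cyp2a5 in Liver-RE against WT (-0.03 to 0.10 on leaving out each liver in turn) and Cyp2a12 in Liver-RE against KO (-0.02 to 0.03). With Cyp2a4 and Cyp2a5 summed, the value for both was -4.18 in KO against WT and -0.82 in Liver-RE against WT, that for Cyp2a4 was 3.36 in Liver-RE against KO, and the WT peak-to-trough for Cyp2a5 was 2.21, all on the log2 scale. On leaving out each liver, the adjusted p of the Cyp2a4 rhythm in Liver-RE ranged over 0.0295 to 0.204 (limma). Over all 29 alternative settings its highest value was 0.221. The main fit shared the spread of each gene between genotypes, although the within-group SD of Cyp2a4 was 0.948 in Liver-RE and 0.369 in WT livers. The adjusted p of the Cyp2a12 rhythm in Liver-RE was 0.0373 when the 6 times were compared without a cosine (limma). With the replicate number as a block, that of Cyp2a4 was 0.0701 and no member's call changed. Over all genes the block gave 501 rhythmic genes in Liver-RE, 0 in KO and 35 that differed between them. The block was common to all genotypes, so it does not take up a replicate pattern of KO livers alone.

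Counts over all genes moved more. Rhythmic genes in KO (0) were 2 with no filter, 2 with quantile normalization, 1 with a mean per genotype and time, 6 when the 6 times were compared without a cosine, and 0 to 3 on leaving out each liver (3 without KO ZT20 replicate 2). Those in Liver-RE (449) were 729 with quantile normalization, 191 with Liver-RE alone in the fit, and 249 to 645 on leaving out each liver, with 249 without Liver-RE ZT16 replicate 2 and 291 without ZT16 replicate 3 or without ZT12 replicate 3. Rhythm differences between Liver-RE and KO (28) were 7 with no filter, 59 with quantile normalization, 52 with the 20 highest genes left out, 44 with a mean per genotype and time, 49 with these genotypes alone, and 7 to 65 on leaving out each liver (the lowest when KO ZT8 replicate 3 was dropped, the highest when Liver-RE ZT16 replicate 1 was), over all genes by more than 1.5 times in 23 of 37 cases. Level differences between Liver-RE and WT (830) were 513 with quantile normalization and 477 with the 20 highest genes left out. The cause was not tested. Of the members, Cyp2a4 in KO livers had the lowest level, so depth and the split of reads with Cyp2a5 bear most on it. The pseudocount is a sizeable part of the value there, and the KO against WT value of Cyp2a4 was -7.44 with a pseudocount of 0.1.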
